A study of Homo sapiens with 4 samples.

Results

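The 36 genes described here carry glucose into the cell, break it down to lactate, feed its carbon into the pentose phosphate pathway, or sense and answer low oxygen. They were listed by name and looked up by gene symbol, and all 36 were found among the 20307 genes of the deposited table. The series measured ribosome-protected fragments, the pieces of mRNA that a translating ribosome shields from nuclease, in PANC-1, an established human pancreatic ductal adenocarcinoma line. It holds 4 libraries, with 2 bioreplicates of negative control cells and 2 of cells depleted of FBXO32, the F-box protein atrogin-1 that selects substrates for a ubiquitin ligase. All cells were grown in the same serum-supplemented medium and stopped with cycloheximide, and the labels state neither the method of depletion nor whether bioreplicates were separate cultures. The p-values below therefore rest on the spread between these libraries, which may be technical. That spread was mostly pooled over genes, and 88.4% of tested genes took the pooled spread alone. An SE or p-value below thus does not show how closely the replicates of that gene agreed.

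Glycolysis splits glucose into pyruvate, and lactate dehydrogenase and the monocarboxylate transporters convert and export the product when it is not burned in mitochondria. When oxygen falls, prolyl hydroxylases stop marking HIF-1α for destruction, and HIF-1 then binds a short DNA element and raises transcription of most glycolytic genes, of LDHA and PDK1, and of CA9, VEGFA, BNIP3 and ADM. Pancreatic ductal tumours are known as poorly perfused and hypoxic, with high glucose uptake.

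Values are TPM, a level scaled by gene length and by library total. The scaling is meant to let levels of different genes be set side by side within a library. The counted region is not given in the sources used here, and how fully this holds for footprints was not tested. Depth cannot be read from TPM and is unknown. Footprints were not set against mRNA levels here, so a difference can lie in the amount of mRNA or in its translation, and in bulk cells fewer cells making a protein cannot be told apart from less per cell. FBXO32 itself (ENSG00000156804) stood at 18.1 and 21.6 TPM in control cells against 14.3 and 12.9 TPM after depletion. Its log2 fold change was -0.51 ± 0.45 (SE), with a limma adjusted p of 0.429, so the depletion is known from the labels alone. The log2(TPM + 1) values of libraries correlated at 0.958 between the controls, at 0.961 between the depleted libraries, and between 0.835 and 0.921 across groups. Of the epithelial keratins, KRT8 (119.8 to 506 TPM) and KRT18 (362 to 1251 TPM) were abundant and KRT19 (10.4 to 30.5 TPM) moderate, whereas KRT7 (0.885 to 3.60 TPM) and EPCAM (1.87 to 7.68 TPM) were low. The leukocyte gene PTPRC and the islet and acinar genes INS, GCG, PRSS1 and CELA3A were listed at 0 in every library. The acinar gene CPA1 and the liver gene ALB were listed at 0 except in depleted library 1, with 0.251 and 2.26 TPM. COL1A1 (35.3 to 111 TPM) and COL3A1 (13.0 to 35.2 TPM), collagens of mesenchymal cells, were present. DCN (0 to 0.972 TPM) and ACTA2 (0.106 to 0.303 TPM), also mesenchymal markers, were low. The endothelial genes PECAM1 (0 to 0.290 TPM) and VWF (0 to 0.043 TPM) and the macrophage gene CD68 (0.831 to 1.54 TPM) were low as well. Of the epithelial markers, KRT8, KRT18 and SOX9 fell and none rose, and of 14 markers of other cells 3 reached the filter, of which COL1A1 fell and COL3A1 rose. The part of these markers in the results below was not tested.

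Footprints fell on 7 of the 36 genes in depleted cells and rose on 1. The 7 were both hexokinases HK1 and HK2, the isomerase GPI, the platelet phosphofructokinase PFKP, the enolase ENO2, the pyruvate kinase PKM, and TALDO1 of the pentose phosphate pathway. The 1 that rose was SLC2A3, the high-affinity glucose transporter GLUT3, from a very low level. The enzymes between aldolase and phosphoglycerate mutase, the lactate dehydrogenases, the lactate exporters and all 6 hypoxia-induced genes did not pass. All 36 genes passed the filter on low values (at least 1 TPM in at least 2 libraries), although CA9 passed it only through the depleted libraries. SLC2A3 was listed at 0 in control library 1, so it too needed a depleted library to pass.

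As a share, 22.2% of these genes passed in either direction, beside 25.7% of the 11623 genes tested (limma on log2(TPM + 1), adjusted p under 0.05 over all tested genes). The share that fell was 19.4%, against 19.5% of all tested genes, and the share that rose was 2.78%, against 6.21%. Every depleted value lay under every control value for 13 genes (36.1%, against 37.6% of all tested genes) and above them for 3 genes (8.33%, against 26.8%), and the groups overlapped for 20. The shares of genes that passed, fell or lay below the controls are thus near those of the whole table and are not a result about these genes. Their median log2 fold change was -0.55, beside -0.16 for all tested genes, and 9 of 36 were above 0.

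**Figure D1:**
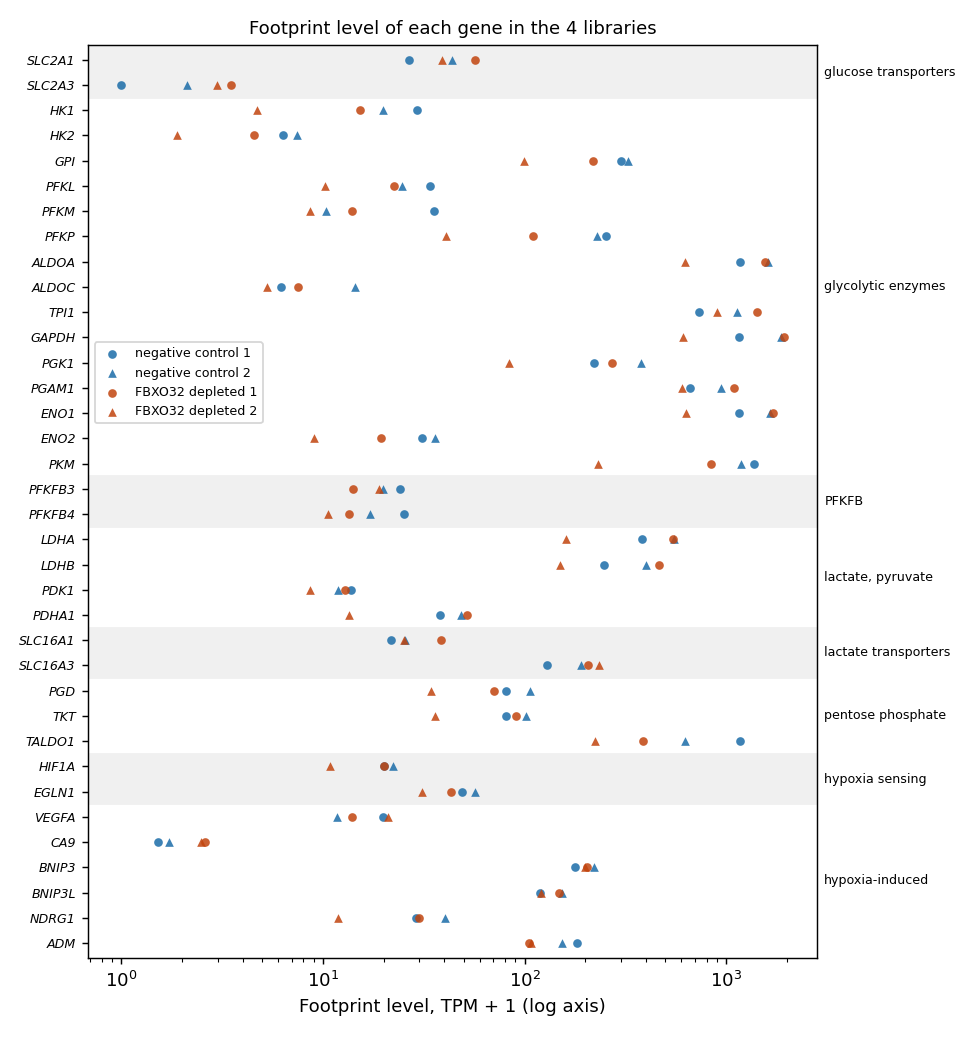
Footprint level of each of the 36 genes in each library, as TPM + 1 on a log axis. Circles are bioreplicate 1 and triangles bioreplicate 2, blue is negative control and orange is FBXO32-depleted. PFKP, PKM, TALDO1, HK1, HK2, GPI and ENO2 have both orange points left of both blue points, and the orange triangle is the leftmost point for most of the glycolytic enzymes.

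The plot of levels shows a range from CA9 and SLC2A3, at or under 2.48 TPM, to GAPDH, ENO1 and ALDOA, the highest by their means. The 15 glycolytic enzymes together made up 0.715% and 0.942% of all TPM in control cells, against 0.924% and 0.386% after depletion. Depleted library 1 thus lay between the controls, and depleted library 2 alone was low.

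The facilitated glucose transporters bring glucose across the plasma membrane. SLC2A1 (GLUT1), the basal carrier and the more abundant of the pair, had 25.8 and 42.7 TPM in control cells against 56.1 and 38.1 TPM after depletion. These groups overlapped, and its log2 fold change of 0.46 ± 0.42 did not pass (limma adjusted p = 0.447). SLC2A3 (ENSG00000059804, chr12:7919230-7936275 on the - strand of GRCh38, as annotated in GENCODE 29) was listed at 0 and at 1.11 TPM in control cells, against 2.48 and 1.96 TPM after depletion. Both depleted libraries were above both controls, with a log2 fold change on the TPM + 1 scale of 1.15 ± 0.45 (limma adjusted p = 0.0443). All 4 values are close to the filter limit, and the call ended without the filter, with the replicate number as a block, and without control library 1 or either depleted library.

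SLC2A3 has a near-copy, SLC2A14, also on chromosome 12, that can take or lend footprints. Over 1488 coding bases, 1436 (96.5%) are identical between them, and of all 28-base windows of the SLC2A3 coding sequence 47.2% occur unchanged in an SLC2A14 transcript. The longest identical run of the whole comparison is 137 bases. The first 90 coding bases of SLC2A3 and the matching stretch of SLC2A14, from GENCODE 29 transcripts, are shown with the 10 differing bases in capitals. This stretch holds more differences for its length than the whole comparison does.
SLC2A3: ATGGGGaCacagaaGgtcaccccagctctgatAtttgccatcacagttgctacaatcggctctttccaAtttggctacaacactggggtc
SLC2A14: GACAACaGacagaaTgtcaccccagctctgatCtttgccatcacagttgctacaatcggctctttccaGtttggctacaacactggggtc
SLC2A14 was listed at 0.353 and 0.423 TPM in control cells and at 0 in each depleted library. The sum of the pair was 0.353 and 1.53 TPM in control cells against 2.48 and 1.96 TPM after depletion. The sum was still higher in both depleted libraries than in both controls, and by less against control 2 than SLC2A3 alone. How the reads were divided between the copies is not given in the sources used here, so the rise of SLC2A3 is uncertain.

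Hexokinases phosphorylate glucose and so trap it in the cell. HK1 (ENSG00000156515, chr10:69269984-69401884, + strand) had 28.3 and 18.8 TPM in control cells against 14.2 and 3.71 TPM after depletion. Both depleted libraries were lower, at a log2 fold change of -1.51 ± 0.46 and an adjusted p of 0.0067 in limma, a ratio of 0.351 on the TPM + 1 scale. HK2, the inducible and tumour-associated form (ENSG00000159399, chr2:74833981-74893359, + strand), went from 5.32 and 6.44 TPM to 3.54 and 0.887 TPM. HK2 was lower in each depleted library (log2 fold change -1.23 ± 0.48, limma adjusted p = 0.0444). A pseudogene, HK2P1, holds most of the 38.0% of HK2 coding windows that also occur in another transcript, against 0.110% for HK1, so the HK2 value is the less certain. HK1 made up 84.2% and 74.5% of the hexokinase pair in control cells against 80.0% and 80.7% after depletion, so the isozyme mix overlapped between groups.

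GPI (ENSG00000105220, chr19:34359480-34402413, + strand) converts glucose 6-phosphate to fructose 6-phosphate and has no isozyme. Its footprints were at 300.0 and 326 TPM in control cells against 216 and 98.5 TPM after depletion, lower in both depleted libraries. The log2 fold change was -1.09 ± 0.38 (limma adjusted p = 0.0218). AC092073.1, a gene that overlaps GPI on the same strand, shares 9.41% of its coding windows. Phosphofructokinase catalyses the committed step, and its 3 subunit genes differed in level. PFKP (ENSG00000067057, chr10:3066333-3137712, + strand), the main subunit gene in these cells, had 253 and 228 TPM in control cells against 109 and 39.6 TPM after depletion. The groups were far apart, and PFKP had the largest fall of the 36 genes, at a log2 fold change of -1.85 ± 0.39 and an adjusted p of 4.2e-05 in limma. PFKL, the liver form, had 32.8 and 23.7 against 21.4 and 9.25 TPM and did not pass (log2 fold change -0.93 ± 0.45, limma adjusted p = 0.109). PFKM, the muscle form, overlapped between groups at 34.7 and 9.31 against 12.9 and 7.60 TPM (log2 fold change -0.81 ± 0.46, limma adjusted p = 0.18). PFKP made up 78.9% and 87.4% of the 3 subunits in control cells against 76.1% and 70.1% after depletion. Its share was lower in both depleted libraries, and 2 libraries against 2 allow no exact permutation p under 0.333 (two-sided). AL451164.3 overlaps PFKP on the same strand and shares 4.04% of the PFKP coding windows.

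Between aldolase and phosphoglycerate mutase, no enzyme passed in limma, and PGK1 alone had an unadjusted p under 0.05. The aldolases ALDOA and ALDOC, TPI1, GAPDH, PGK1 and PGAM1 had log2 fold changes from -0.94 (PGK1) to 0.32 (TPI1), and for all 6 the groups overlapped. GAPDH, the oxidising step, read 1154 and 1866 TPM in control cells against 1934 and 609.7 TPM after depletion, so that 1 depleted library held its highest value and the other its lowest. PGK1, the first ATP-making step, lay nearest the threshold of those that missed it, with 221 and 376 against 271 and 82.4 TPM (log2 fold change -0.94 ± 0.38, limma adjusted p = 0.0525). TPI1, the triose isomerase, had its highest value, 1430.0 TPM, in depleted library 1, against 731 and 1135 TPM in the controls and 902 TPM in depleted library 2. Other annotated genes, either processed copies or transcripts that overlap the gene, share 100% of the 28-base coding windows of ALDOA and PGAM1, 70.5% of GAPDH, 60.9% of TPI1 and 34.6% of PGK1, so their levels depend on how such reads were assigned.

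Enolase makes phosphoenolpyruvate and pyruvate kinase turns it into pyruvate with a second gain of ATP. ENO2, the neuronal enolase (ENSG00000111674, chr12:6913745-6923698, + strand), had 29.99 and 34.8 TPM in control cells against 18.3 and 7.99 TPM after depletion. Both depleted libraries were lower, with a log2 fold change of -1.34 ± 0.45 and an adjusted p of 0.0158 in limma. ENO1, the common enolase, overlapped at 1154 and 1646 against 1710.5 and 634 TPM and did not pass (log2 fold change -0.40 ± 0.35, limma adjusted p = 0.425). ENO1 was 97.5% and 97.9% of the enolase pair in control cells against 98.9% and 98.8% after depletion, so its share was higher in both depleted libraries. PKM (ENSG00000067225, chr15:72199029-72231822, - strand) read 1376 and 1186 TPM in control cells against 838 and 232 TPM after depletion. The groups did not overlap, at a log2 fold change of -1.53 ± 0.36 and an adjusted p of 0.000315 in limma. Values are per gene, so the PKM1 and PKM2 splice forms were not analysed here. Against ENO1, a pair chosen after its values were seen, PKM made up 54.4% and 41.9% of the sum in control cells against 32.9% and 26.8% after depletion. Of the windows of PKM, 21.97% occur in another transcript, and of ENO1 21.5%.

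By count, 6 of 15 glycolytic enzymes fell (40.0%, beside 19.5% of all tested genes) and none rose (beside 6.21%), and the median log2 fold change of the 15 was -0.93. None of them passed without depleted library 2 or without control library 1. The 6 were HK1, HK2, GPI, PFKP, ENO2 and PKM. The other 9 comprised TPI1 and PGAM1, with values above 0, and 7 with values below 0.

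**Figure D2:**
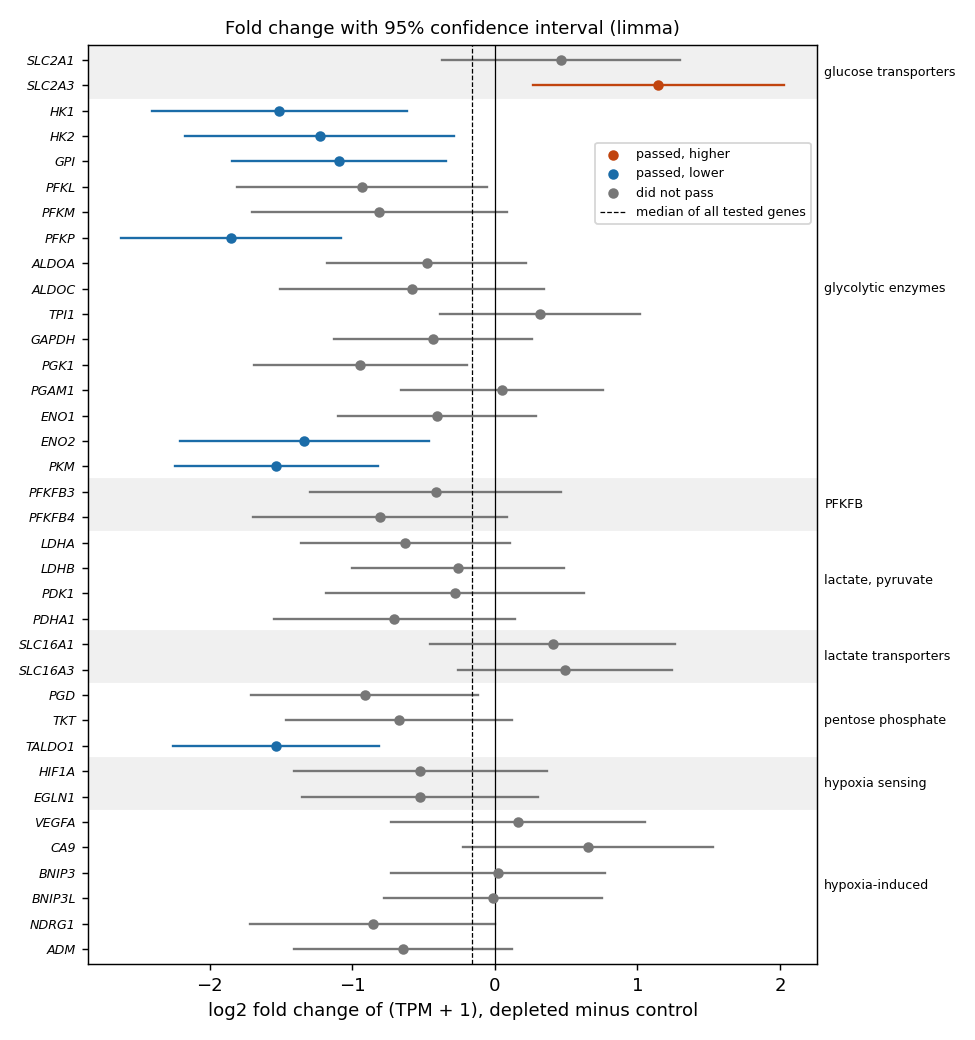
Log2 fold change of TPM + 1, depleted minus control, for each gene, with its 95% confidence interval from limma over 2 libraries a group. Blue marks the 7 genes that fell, orange SLC2A3 that rose and grey the 28 that did not pass, and the dashed line is the median of all tested genes, -0.16. Most of the glycolytic enzymes lie left of that line, whereas the glucose and lactate transporters lie right of it.

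The bifunctional enzymes PFKFB3 and PFKFB4 set fructose 2,6-bisphosphate, the activator of phosphofructokinase. PFKFB3 had 23.1 and 18.8 TPM in control cells against 13.1 and 18.0 TPM after depletion. PFKFB4 had 24.2 and 16.2 against 12.4 and 9.54 TPM. Both were lower in both depleted libraries, and neither passed (log2 fold changes -0.42 and -0.81, limma adjusted p = 0.529 and 0.181).

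None of the 4 enzymes at the pyruvate branch passed in limma, and 0 had an unadjusted p under 0.05. LDHA, the subunit that favours lactate formation, had 379.7 and 550.0 TPM in control cells against 545 and 159.9 TPM after depletion (log2 fold change -0.63 ± 0.37, limma adjusted p = 0.211). LDHB, the heart subunit, had 248 and 401 against 466 and 149 TPM (log2 fold change -0.26 ± 0.38, limma adjusted p = 0.657). For both, depleted library 1 was near or above control 2 and depleted library 2 was the lowest. LDHA made up 60.5% and 57.8% of the pair in control cells against 53.9% and 51.8% after depletion, lower in both. Other annotated genes share 48.7% of the LDHA windows and 93.4% of the LDHB windows. PDK1, the kinase that switches pyruvate dehydrogenase off, read 12.8 and 10.8 against 11.9 and 7.61 TPM. PDHA1, the dehydrogenase subunit it acts on, read 37.1 and 47.3 against 50.6 and 12.4 TPM. Each overlapped between the groups, at log2 fold changes of -0.28 and -0.70.

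The monocarboxylate transporters stood on the other side of the all-gene median. SLC16A3 (MCT4), the exporter of highly glycolytic cells, had 128 and 189 TPM in control cells against 206 and 233 TPM after depletion. Both depleted values were higher, but the difference did not pass (log2 fold change 0.49 ± 0.38, limma adjusted p = 0.358). SLC16A1 (MCT1), which carries lactate in either direction, read 20.8 and 24.4 against 37.4 and 24.3 TPM and overlapped by the margin of its lowest depleted value. Neither gene shares a coding window with another gene. Exons of SLC16A3 overlap CSNK1D and those of SLC16A1 overlap SLC16A1-AS1, both on the opposite strand.

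In the pentose phosphate pathway, which makes NADPH and ribose, TALDO1 fell. This transaldolase of the non-oxidative branch (ENSG00000177156, chr11:747329-765024, + strand) had 1177 and 621 TPM in control cells against 388 and 224 TPM after depletion. The controls differed by more than the depleted libraries did, but the groups did not overlap (log2 fold change -1.53 ± 0.37, limma adjusted p = 0.000401). No window of TALDO1 occurs in another gene. PGD, the second NADPH-producing enzyme, had 79.9 and 105 against 69.4 and 33.4 TPM and did not pass (log2 fold change -0.91 ± 0.41, limma adjusted p = 0.08). TKT, the transketolase, overlapped at 80.4 and 101 against 89.4 and 34.9 TPM (log2 fold change -0.67 ± 0.40, limma adjusted p = 0.213).

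Of the oxygen sensors, HIF1A, the inducible subunit of HIF-1, had 19.0 and 21.2 TPM in control cells against 19.1 and 9.78 TPM after depletion. EGLN1 (PHD2), the hydroxylase that marks it, had 47.8 and 55.5 against 42.3 and 29.8 TPM. Both had a log2 fold change of -0.52 and neither passed (limma adjusted p = 0.417 and 0.375). Since HIF-1α is controlled mainly by protein stability, its footprints do not measure HIF-1 activity.

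None of the 6 hypoxia-induced genes passed in limma, 0 had an unadjusted p under 0.05, and their median log2 fold change was 0.00. CA9, the carbonic anhydrase used as a marker of hypoxia, was low at 0.516 and 0.720 TPM in control cells against 1.59 and 1.49 TPM after depletion. Both depleted values were higher, and the difference did not pass (log2 fold change 0.65 ± 0.45, limma adjusted p = 0.283). The angiogenic factor VEGFA read 18.9 and 10.7 against 12.9 and 19.9 TPM. The vasodilator peptide gene ADM read 181 and 152 against 104 and 107 TPM, lower in both depleted libraries with close replicates (log2 fold change -0.65 ± 0.39, limma adjusted p = 0.218). ADM passed as lower once the trend with coding length was removed. Both mitophagy receptors overlapped between the groups. BNIP3 read 177 and 221 against 202 and 198 TPM, a log2 fold change of 0.02 with a 95% interval from -0.73 to 0.77. Of the coding windows of BNIP3, 51.7% occur in another transcript, most of them in the pseudogene BNIP3P1, so its level depends on how such reads were assigned. BNIP3L read 118 and 153 against 147 and 120.4 TPM, at -0.02 with an interval from -0.78 to 0.75. The width of these intervals leaves room for changes in either direction. NDRG1, a stress-induced gene, had 27.99 and 39.2 against 29.01 and 10.8 TPM (log2 fold change -0.86 ± 0.44, limma adjusted p = 0.136).

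The depleted libraries differed from each other across many metabolic genes. All 15 glycolytic enzymes, and 32 of the 36 genes, were lower in depleted library 2 than in depleted library 1, against 61.1% of all tested genes. So were 19 of 20 genes of the citrate cycle list, all 8 other tested glycolytic isozymes and 7 of 8 further pentose phosphate genes. The count was 3 of 3 for gluconeogenesis, 9 of 12 around pyruvate dehydrogenase and 18 of 27 for further hypoxia-induced genes. It was only 4 of 9 for further oxygen-sensing genes and 1 of 6 for further glucose and lactate transporters. The ratio of library 1 to library 2 on the TPM + 1 scale ran from 1.43 (ALDOC) to 3.61 (PKM) among the glycolytic enzymes. Their median log2 difference from the control mean was -0.37 in depleted library 1 and -1.50 in depleted library 2, and for all tested genes it was -0.00 and -0.32. In library 1, 5 enzymes were above the control mean (ALDOA, TPI1, GAPDH, PGAM1 and ENO1), and in library 2 none was. For the 6 hypoxia-induced genes the medians were -0.05 and -0.08.

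**Figure D3:**
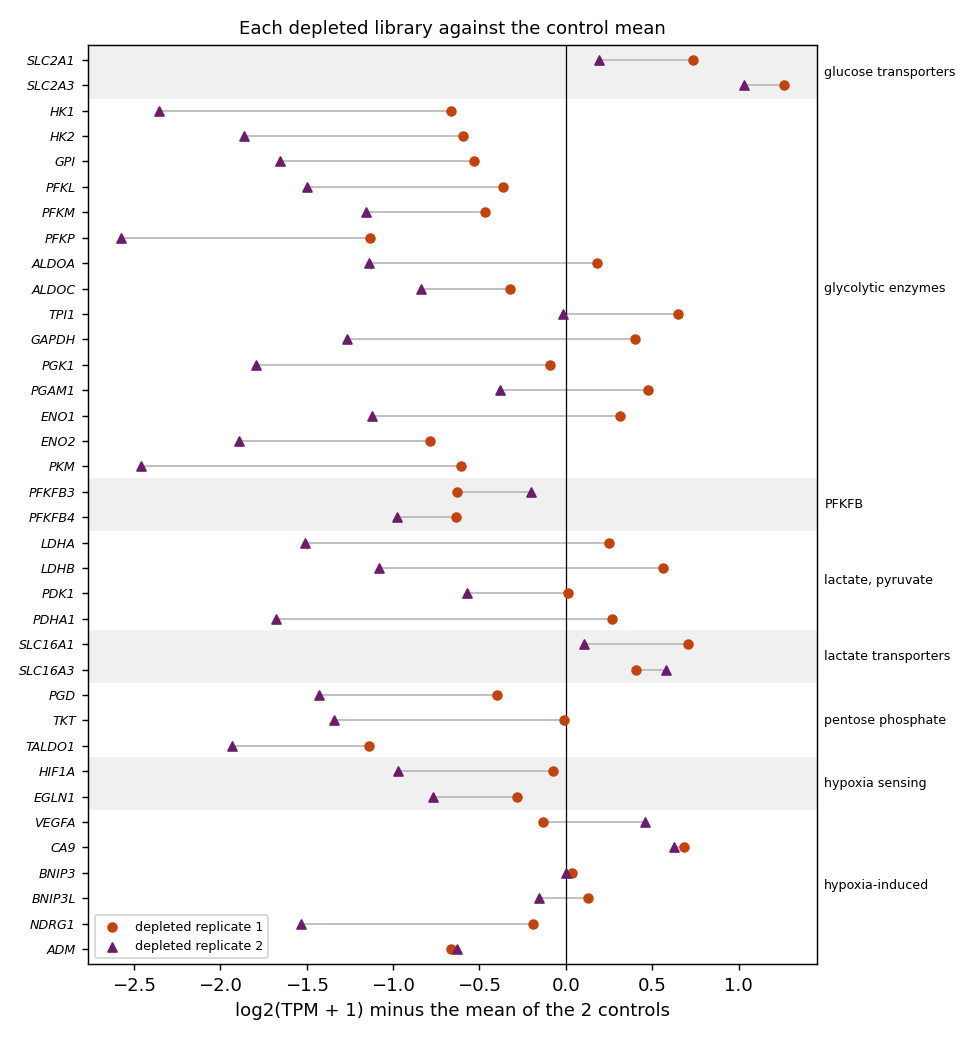
Log2(TPM + 1) of each gene in depleted library 1 (orange circles) and depleted library 2 (purple triangles), minus the mean of the 2 controls, with a line joining the libraries. The triangle is left of the circle for 32 of 36 genes, and for PFKP and TALDO1 both points are below -1.

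PFKP and TALDO1 were below the control mean by over 1 on the log2 scale in both depleted libraries, as the plot of each depleted library against the control mean shows. PFKP was at -1.13 and -2.57, and TALDO1 at -1.14 and -1.93. HK1, by contrast, was at -0.67 and -2.36, and PKM at -0.61 and -2.46, so that most of their fall came from library 2. Without depleted library 2, none of the 36 genes passed in limma in either direction, with 2 lower and 1 higher at an unadjusted p under 0.05, beside 1321 lower and 174 higher calls among all tested genes. Without depleted library 1, 17 passed as lower, beside 2389 of all 11623 tested genes. Without control library 1 none passed in limma, with 7 lower and 0 higher at an unadjusted p under 0.05, beside 347 lower and 37 higher calls among all tested genes, and without control library 2 PFKP, TALDO1 and SLC2A3 passed. PFKP kept its call in 14 of 16 alternative settings and TALDO1 in 13. These counts include the looser threshold of 0.1, which could not end a call.

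Footprint fold changes in the whole table varied with the length of the coding sequence, taken from GENCODE 29. The Spearman correlation across 11525 tested genes was -0.456, and across the 36 genes -0.335, where genes are not independent replicates. Median log2 fold changes ran from 0.54 for coding sequences under 600 nt to -0.84 for those of 2400 nt or more. The 36 genes had a median coding length of 1335 nt, beside 1377 nt for all tested genes, and 18 of them lay between 1200 and 1800 nt. In that bin their median was -0.45, beside -0.27 for all tested genes of that length. The 10 between 600 and 1200 nt had a median of -0.35, beside 0.14. When each library's trend with coding length was removed, PFKP, ENO2, TALDO1 and SLC2A3 kept their calls, and HK1, HK2, GPI and PKM did not pass. PKM then stood at -1.19 on the log2 scale (limma adjusted p = 0.0726) and passed with the replicate block added (limma adjusted p = 0.00789), and HK1, HK2 and GPI were at -0.79, -0.51 and -0.66. The part of the length trend in the falls of these 4 was not tested further.

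**Figure D4:**
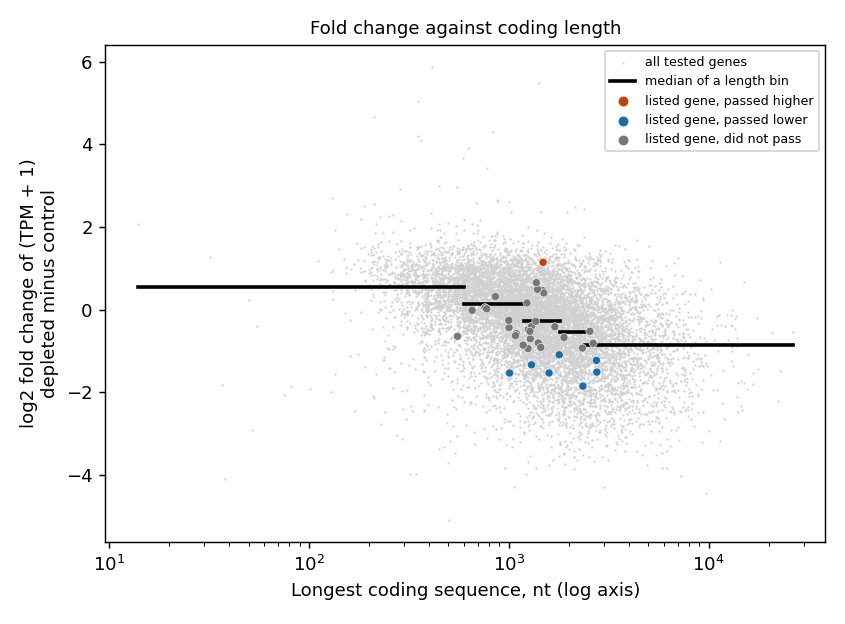
Log2 fold change of TPM + 1, depleted minus control, against the length of the longest coding sequence in nt on a log axis. Small grey points are all tested genes, large points the 36 genes (blue fell, orange rose, grey did not pass), and black bars the medians of all tested genes in 5 bins of length, which go from 0.54 to -0.84. The 7 blue points lie under the bar of their length and the orange point above it.

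HIF-1 binds the letters ACGTG or GCGTG, and these were looked for on both strands in the 250 bases before the annotated start of each gene (RefSeq, GRCh38.p14), where 31 of the 36 genes had an entry. ACGTG also lies inside the E-box CACGTG, which other factors bind. ACGTG occurred in 12 of the 31 (38.7%), beside 18.7% of all 27305 promoters. GCGTG occurred in 12 (38.7%, beside 31.9%), either in 19 (61.3%, beside 43.1%), and CACGTG in 4 (12.9%, beside 6.49%). HIF-1 is described above as raising most glycolytic genes, so the list was made up in part of its targets. Promoters were not matched on base composition, and these shares are not read as a result about these genes. Of the 7 genes that fell, 3 held ACGTG (HK2, GPI and ENO2), and of the 24 that did not pass and had an entry, 9 did. A match is a run of letters and not evidence of binding, and in GENCODE 29 the whole of the GPI and ENO2 regions and part of those of HK2, CA9 and GAPDH lie inside exons of transcripts of the gene. The matches of the 3 genes that fell are shown in 30 bases each, with those of CA9 and GAPDH, which did not pass, for comparison, and capitals mark ACGTG on either strand (its reverse reads CACGT, and the GAPDH match is an E-box). They lie at chr2:74834067-74834096 for HK2, chr19:34364818-34364847 for GPI, chr12:6914450-6914479 for ENO2, chr9:35673898-35673927 for CA9 and chr12:6535172-6535201 for GAPDH, all on the + strand.
HK2: aatgggcgtgcgCACGTcactgatccggag
GPI: acactgcctgtaACGTGgaaggtgttcgat
ENO2: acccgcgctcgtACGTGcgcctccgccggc
CA9: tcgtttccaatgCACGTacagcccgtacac
GAPDH: ctctgcggggtCACGTGtcgcagaggagcc
The matches begin 48, 162, 118, 18 and 80 bases before the annotated start, and HK2 holds another 229 bases before it. PFKP, with the largest fall, held neither motif nor an E-box in this window, which is given whole (chr10:3067720-3067969, + strand) and has no capitals because nothing matched.
PFKP: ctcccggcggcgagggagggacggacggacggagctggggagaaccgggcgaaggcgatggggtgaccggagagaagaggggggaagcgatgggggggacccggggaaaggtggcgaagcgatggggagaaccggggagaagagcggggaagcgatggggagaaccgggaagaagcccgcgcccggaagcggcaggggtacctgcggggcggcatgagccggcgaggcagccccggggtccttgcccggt
So the genes that fell include some with and some without these letters close to the start.

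Other genes of the same pathways were taken from lists of isozymes, transporters and HIF-regulated genes. Among 8 tested isozymes of glycolysis 2 fell (25.0%, beside 19.5% of all tested genes). The muscle enolase ENO3 had 24.9 and 44.1 TPM in control cells against 5.96 and 3.50 TPM after depletion (log2 fold change -2.61 ± 0.46, limma adjusted p = 4.2e-07). PFKFB2, the third PFKFB gene, had 38.7 and 21.9 against 6.37 and 3.42 TPM (log2 fold change -2.40 ± 0.46, limma adjusted p = 4.3e-06). Exons of ENO3 overlap PFN1 and those of PFKFB2 overlap YOD1 on the opposite strand, and whether strand was used in counting is not given in the sources used here.

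Among 6 further tested transporters of glucose and lactate, 2 rose (33.3%, beside 6.21% of all tested genes) and none fell (beside 19.5%). BSG (basigin), the chaperone that carries MCT1 and MCT4 to the membrane, had 1478 and 2146 TPM in control cells against 4065 and 4248 TPM after depletion (log2 fold change 1.22 ± 0.34, limma adjusted p = 0.00315). SLC2A12 (GLUT12) had 4.06 and 4.13 against 14.9 and 16.3 TPM (log2 fold change 1.70 ± 0.47, limma adjusted p = 0.00243), and it overlaps TBPL1 on the opposite strand. In both, the depleted libraries lay well above the controls and close to each other. None of 8 further pentose phosphate genes and none of 3 tested gluconeogenesis genes passed in limma, with 2 and 1 of them higher at an unadjusted p under 0.05. Of 12 further genes tested around pyruvate dehydrogenase, 1 rose (8.33%, beside 6.21% of all tested genes) and none fell (beside 19.5%). This was MPC1, a subunit of the mitochondrial pyruvate carrier with a coding sequence of 327 nt (22.3 and 40.0 against 63.2 and 65.0 TPM, log2 fold change 1.07, limma adjusted p = 0.0436). Of 20 genes of the citrate cycle and citrate export, 1 rose and 1 fell (5% each, beside 6.21% and 19.5%). SDHD (477 nt), a membrane subunit of succinate dehydrogenase, rose (log2 fold change 1.26, limma adjusted p = 0.00638, with 96.2% of its windows shared with other genes). ACLY (3303 nt), which cleaves citrate for lipid synthesis, fell (-1.40, limma adjusted p = 0.00827). These shares are not read as results about the lists. Of all tested genes, 20.7% of those under 600 nt rose and 38.3% of those of 2400 nt or more fell. The part of coding length in the calls of MPC1, SDHD and ACLY was not tested.

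Of 9 further oxygen-sensing genes tested, 1 rose (11.1%, beside 6.21% of all tested genes) and none fell (beside 19.5%), which is not read as a result about the list. HIF1AN (FIH), the asparagine hydroxylase that blocks HIF transactivation, rose from 34.1 and 38.4 TPM to 95.1 and 71.6 TPM (log2 fold change 1.17, limma adjusted p = 0.0233), and it overlaps NDUFB8 on the opposite strand. Of 27 further hypoxia-induced genes tested, 3 rose (11.1%, beside 6.21% of all tested genes) and 5 fell (18.5%, beside 19.5%), shares that are not read as a result about the list. HILPDA, a lipid-droplet protein, rose from 13.2 and 20.6 TPM to 101 and 97.8 TPM (log2 fold change 2.52, limma adjusted p = 1.2e-07). Its coding sequence has 189 nt, and of all tested genes under 600 nt 20.7% rose. Its exons overlap AC010655.2 and AC010655.4 on the same strand. The histone demethylase KDM4B fell from 23.2 and 18.2 TPM to 7.23 and 2.34 TPM (log2 fold change -2.04, limma adjusted p = 0.000159). Its coding sequence has 3390 nt, and of all tested genes of 2400 nt or more 38.3% fell. The part of coding length in the calls of HILPDA and KDM4B was not tested. ANGPTL4, a secreted lipase inhibitor, fell from 644 and 522 TPM to 272 and 231 TPM (log2 fold change -1.20, limma adjusted p = 0.00857). The median log2 fold change of these 27 genes was 0.05.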

How the data were processed

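Ribosome footprints were deposited by the authors as 1 table of TPM values per gene and library, per the file headers, and each library sums to 1000000. Per the labels' protocols, cells were held with cycloheximide, free RNA and DNA were digested with nucleases, and ribosomal RNA was removed. Per the submitters' processing notes, the build was GRCh38 and the tools, in no stated order or role, included STAR, RSEM, Bowtie2 2.2.8, DESeq2 and fastp. The sources used here do not give the annotation, the counted region or strand use. Exons of HK1, PFKM, SLC16A3, CA9 and other listed genes overlap another gene on the opposite strand. Columns named KO and NS were read as depleted and control from their names alone. The genes and lists were chosen with earlier results of these data known.

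Of 20307 genes, 5227 were listed at 0 in all libraries, and 19702 had a symbol. The 11623 genes that reached 1 TPM in 2 or more libraries were tested as log2(TPM + 1) with limma 3.58.1 (R 4.3.3; trend, robust, all 4 libraries, no covariate), with Benjamini-Hochberg adjustment over all tested genes and a threshold of 0.05. The code was tested on simulated data. With 2 residual degrees of freedom, 88.4% of genes took the pooled spread alone. Errors are SE from limma, and intervals cover 95%. TPM keeps no depth. All 36 genes are accounted for. Values in every library are given for those that passed and their isozymes, and of the other lists the genes that passed are named, up to 3 a list. Coding lengths and positions are from GENCODE 29 on GRCh38, and length trends were removed by loess (span 0.5). Shared windows are 28-base stretches of a coding sequence found in transcripts of another gene. Alternatives were scaling, filter, pseudocount, moderation, threshold, replicate block, coding length and leaving out each library.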

Additional observations from a re-analysis of the deposited data

How the results depend on the processing

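Of the 36 genes, 1 rose and 7 fell. A minimum of 5 TPM left 34 of them in the test and dropped SLC2A3 and CA9. SLC2A3 could therefore not pass in that setting, whose count says nothing about its rise. None rose in limma without a filter on low values, with a minimum of 5 TPM, at an adjusted p of 0.01 or with the replicate block (0 in each, and 1, 0, 1 and 1 at an unadjusted p under 0.05), and leaving out 1 library gave between 0 and 1. The number that fell was 1 without a filter (PFKP), 4 at an adjusted p of 0.01 and 4 with the coding-length trend removed, and leaving out 1 library gave between 0 (without control replicate 1 or depleted replicate 2) and 17 (without depleted replicate 1). In the other settings between 5 and 9 fell. The causes were not tested. With the replicate block, 5 fell (HK1, PFKP, ENO2, PKM and TALDO1). Across all tested genes, same-numbered libraries did not deviate together (correlation -0.049). Whether they shared a batch or a culture was not tested.

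The 8 calls turned direction in no alternative. Median-ratio scaling moved the median of all tested genes from -0.16 to 0.02 and that of the 36 genes from -0.55 to -0.37. Among genes that did not pass, BNIP3L turned to 0.19 with that scaling and to 0.0082 with the most abundant and mitochondrial genes removed. With the length trend removed, with or without the replicate block, PGAM1 turned to -0.14, BNIP3 to -0.15 and HIF1A to 0.15. Leaving out 1 library gave log2 fold changes that changed sign for PFKM (-1.71 to 0.084), ALDOA (-1.14 to 0.18), ALDOC (-1.19 to 0.028), TPI1 (-0.014 to 0.65), GAPDH (-1.27 to 0.40), PGAM1 (-0.38 to 0.48), ENO1 (-1.12 to 0.31), LDHA (-1.51 to 0.25), LDHB (-1.08 to 0.56), PDK1 (-0.57 to 0.011), PDHA1 (-1.68 to 0.27), VEGFA (-0.22 to 0.55), BNIP3 (-0.14 to 0.18) and BNIP3L (-0.20 to 0.17). A group of 1 library was then assumed to vary like the other. Depth is unknown, so the precision of low genes such as SLC2A3 and CA9 could not be given.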
